A study of Mus musculus with 21 samples.

Results

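This account covers 10 genes for nuclear receptors that bind lipids, retinoids, vitamin D or steroids, listed by name, with earlier results of these data known: Nr1h3, Nr1h2, Rxra, Rxrb, Pparg, Ppard, Nr3c1, Vdr, Rara and Esr1. They are 10 of 54532 genes counted by RNA-seq, and all 10 passed the filter on low counts that left 22935 genes for testing. RNA came from myeloid cells sorted from collagenase-digested fat of male C57BL/6 mice. Lean mice had eaten a normal diet and obese mice a high fat diet, both for 16 weeks. The sort gave 3 populations from either diet: MHCII-low macrophages, MHCII+CD11c- macrophages and monocyte-derived cells, called P3 in the sample titles. MHCII+CD11c+ macrophages came from obese mice only, so there were 7 groups of 3 libraries, 21 in all. The labels name no fat depot, give no age, and do not say that the 3 libraries of a group are separate animals, so the p-values measure the spread between these samples.

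Nuclear receptors are transcription factors switched by small fat-soluble ligands. The liver X receptors, LXR alpha (Nr1h3) and LXR beta (Nr1h2), bind oxysterols and turn on genes that export cholesterol. The peroxisome proliferator-activated receptors gamma (Pparg) and delta (Ppard) bind fatty acids and act on lipid uptake, storage and oxidation. Both pairs, like the retinoic acid receptor alpha (Rara) and the vitamin D receptor (Vdr), work as dimers with a retinoid X receptor (Rxra, Rxrb). The glucocorticoid receptor (Nr3c1) and oestrogen receptor alpha (Esr1) act without that partner, and glucocorticoids are known for restraining inflammatory genes in macrophages. Macrophages of obese fat are known for taking up lipid from adipocytes.

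The stretches before the transcription start are shown for 4 members on which the comparisons turn: the LXR pair Nr1h3 and Nr1h2, which changed by very different amounts with diet, Vdr, which was high in monocyte-derived cells, and Rara, whose diet change differed between populations. Each is the part of the 250 bases before the gene's most upstream RefSeq start that holds no GENCODE exon, on GRCm38.p6, read 5′ to 3′ on the gene's strand. Capitals mark GGGCGG or its complement CCGCCC, the GC box letters. AGGTCA, a half-site of many but not all nuclear receptors, was searched for in the same way on both strands.
Nr1h3, chr2:91195152-91195366, minus strand: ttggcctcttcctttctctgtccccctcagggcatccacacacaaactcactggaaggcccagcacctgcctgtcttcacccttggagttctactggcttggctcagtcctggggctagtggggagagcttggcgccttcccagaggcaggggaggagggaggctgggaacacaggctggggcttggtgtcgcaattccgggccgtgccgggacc
Nr1h2, chr7:44553966-44554215, minus strand: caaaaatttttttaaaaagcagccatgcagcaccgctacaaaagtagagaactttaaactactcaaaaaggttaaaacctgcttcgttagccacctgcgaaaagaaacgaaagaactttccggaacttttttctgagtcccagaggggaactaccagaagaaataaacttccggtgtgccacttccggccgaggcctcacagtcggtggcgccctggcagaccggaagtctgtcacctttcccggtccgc
Vdr, chr15:97908311-97908546, minus strand: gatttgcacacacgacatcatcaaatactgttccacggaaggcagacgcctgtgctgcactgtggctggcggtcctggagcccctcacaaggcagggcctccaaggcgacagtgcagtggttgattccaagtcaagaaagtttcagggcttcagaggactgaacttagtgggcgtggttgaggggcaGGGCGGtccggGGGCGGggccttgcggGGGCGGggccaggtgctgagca
Rara, chr11:98937446-98937695, plus strand: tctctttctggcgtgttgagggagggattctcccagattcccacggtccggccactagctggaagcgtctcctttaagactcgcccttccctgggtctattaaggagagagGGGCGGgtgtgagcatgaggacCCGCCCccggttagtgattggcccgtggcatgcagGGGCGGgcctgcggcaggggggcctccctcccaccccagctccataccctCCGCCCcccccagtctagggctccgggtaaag
The Nr1h2 stretch lies outside the annotated gene, and the other stretches lie in introns of longer annotated transcripts. The Vdr stretch held 3 GC boxes and that of Rara 4, while those of Nr1h3 and Nr1h2 held 0. Of all 32851 RefSeq promoter windows taken at 250 bases, 32.7% held a GC box and 14% held AGGTCA. At the Nr1h3 length of 215 bases these shares were 27.7% and 12.3%, and at the Vdr length of 236 bases 30.8% and 13.3%. AGGTCA was not in any of these 4 stretches. A match or its lack describes these letters and no binding.

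The 21 libraries held between 11245851 and 35568948 counts. Replicate 3 of lean monocyte-derived cells was the shallowest, and 67.1% of its counts lay on protein-coding genes against 73.7% to 84% elsewhere. Replicates correlated at 0.904 to 0.942 in lean monocyte-derived cells and at 0.972 to 0.99 in the other groups (log2 CPM). Members had from 63 counts (Nr1h3) to 10545 counts (Nr3c1) in a library. Obese macrophage libraries were all deeper (26648301 to 35568948 counts) than lean ones (20783760 to 25914583 counts), so depth went with diet in macrophages. Yet fewer genes had any count in obese macrophage libraries (26447 to 28025) than in lean ones (28688 to 36394). The part of either in the lower levels reported here was not tested. The 7 macrophage markers summed to 3737 to 4799 CPM of the library total in macrophage groups, 996 to 2443 CPM in lean and 1726 to 2310 CPM in obese monocyte-derived cells. The 7 dendritic cell markers summed to 232 to 1088 CPM in lean and 330 to 737 CPM in obese monocyte-derived cells, and to 21.9 to 54.4 CPM in macrophages, so the monocyte-derived libraries held RNA of both marker sets. Lean monocyte-derived replicate 2 had 2443 CPM of macrophage and 232 CPM of dendritic cell markers. Replicate 1 had 1225 and 1088 CPM and replicate 3 had 996 and 709 CPM, both below every obese monocyte-derived library in macrophage markers. The part of this mix in the results for monocyte-derived cells was not tested. The 7 fibroblast markers were highest in replicate 2 of every obese group, at 1384 to 2128 CPM against 520.1 to 1013 CPM in replicates 1 and 3, and they were also higher in obese than in lean libraries without overlap. They went from 632 to 820 CPM up to 888 to 2015 CPM in MHCII-low, from 538 to 730.4 CPM up to 893 to 2128 CPM in CD11c-negative, and from 198.5 to 304 CPM up to 520.1 to 1539 CPM in monocyte-derived cells. The part of these markers in the diet results was not tested. In sorted bulk RNA, fewer cells of a type and less RNA per cell cannot be told apart.

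Nr1h3 and Pparg were higher in obese than in lean cells of all 3 populations that both diets gave. Ppard, Rara and Esr1 were lower in obese MHCII-low and CD11c-negative macrophages. Levels are in CPM, each gene's counts relative to its library's total after TMM scaling, and a gene is called where the edgeR quasi-likelihood test has a Benjamini-Hochberg adjusted p under 0.05 over all tested genes. In MHCII-low macrophages 6 of 10 members were called, 3 higher and 3 lower in obese mice, where 30.7% of all tested genes were called (16.8% higher, 13.8% lower). In CD11c-negative macrophages 7 were called, 3 higher and 4 lower, against 32.4% of all genes (16.8% higher, 15.6% lower). In monocyte-derived cells 3 were called, all higher, against 17.2% of all genes (7.44% higher, 9.76% lower). At an unadjusted p under 0.05, 1 member was lower there, and DESeq2 called 0 lower. The median log2 change of the 10 members was -0.06, -0.25 and 0.22, beside -0.075, -0.10 and -0.046 over all tested genes. Leaving out replicate 2 or 3 of the obese, or 2 or 3 of the lean, MHCII-low group took the 7030 genes called in MHCII-low macrophages to 3692, 3910, 4324 and 4670. Leaving out lean CD11c-negative replicate 3 took 7422 to 4871 called genes. In monocyte-derived cells the 3946 called genes became 7636 without lean replicate 2, and 1707, 2573 and 1573 without lean replicate 3, obese replicate 1 and obese replicate 3. The members called there became 5 without lean replicate 2.

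**Figure D1:**
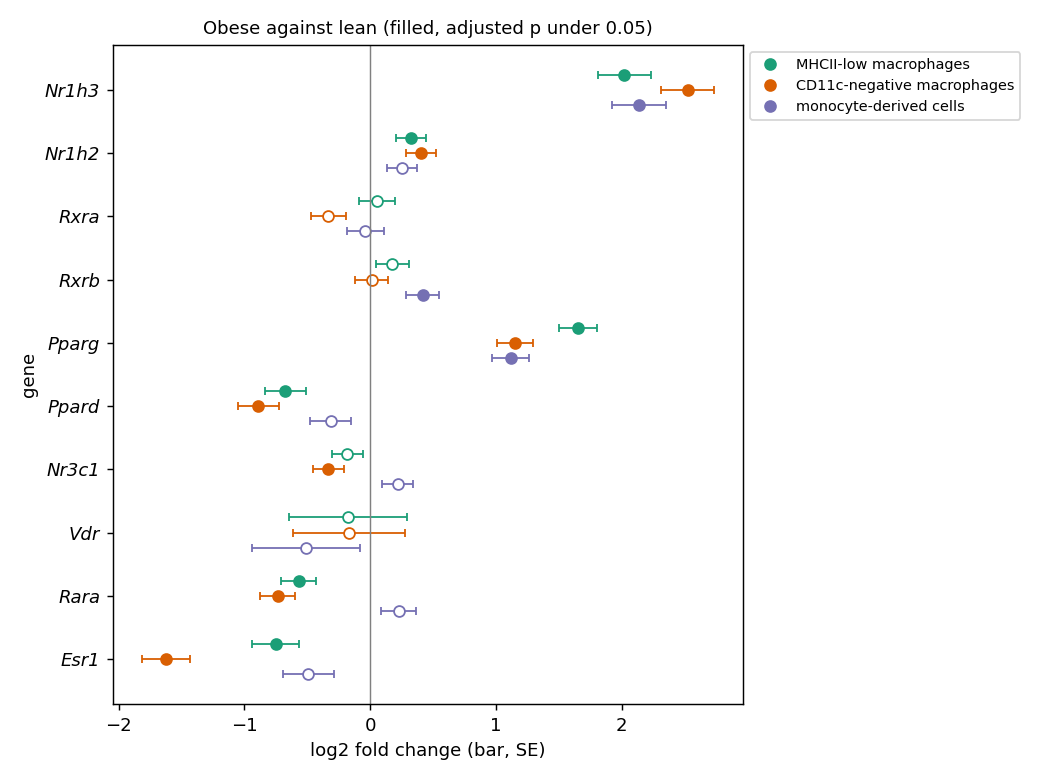
Log2 fold change of each receptor gene between obese and lean mice in each of the 3 populations present on both diets (points, with SE bars; filled where the adjusted p was under 0.05). Nr1h3 and Pparg lie above 1 in all 3 populations, and Esr1 lies at -1.62 in CD11c-negative macrophages.

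Between genes, levels are compared per kilobase of exon (RPKM). Averaged over the 7 groups, Rara (33.6 RPKM) and Nr3c1 (28.1 RPKM) were the most abundant and Esr1 (1.24 RPKM) the least. Nr1h2 stood at 16.2, Pparg at 10.8, Rxra at 10.7, Ppard at 8.78, Nr1h3 at 8.52, Vdr at 6.91 and Rxrb at 5.92 RPKM. Group means of a gene spanned the widest range for Vdr, where the highest group was 19.3 times the lowest, and for Nr1h3 (10.8 times) and Pparg (6.45 times). They spanned the narrowest range for Nr1h2 (1.45 times) and Rxrb (1.58 times). Of the 60 steps between neighbouring groups in the 10 genes' orders, 25 had libraries that did not overlap. Groups were ordered by their own means first, and no share over all tested genes was computed. The count describes these orders only.

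**Figure D2:**
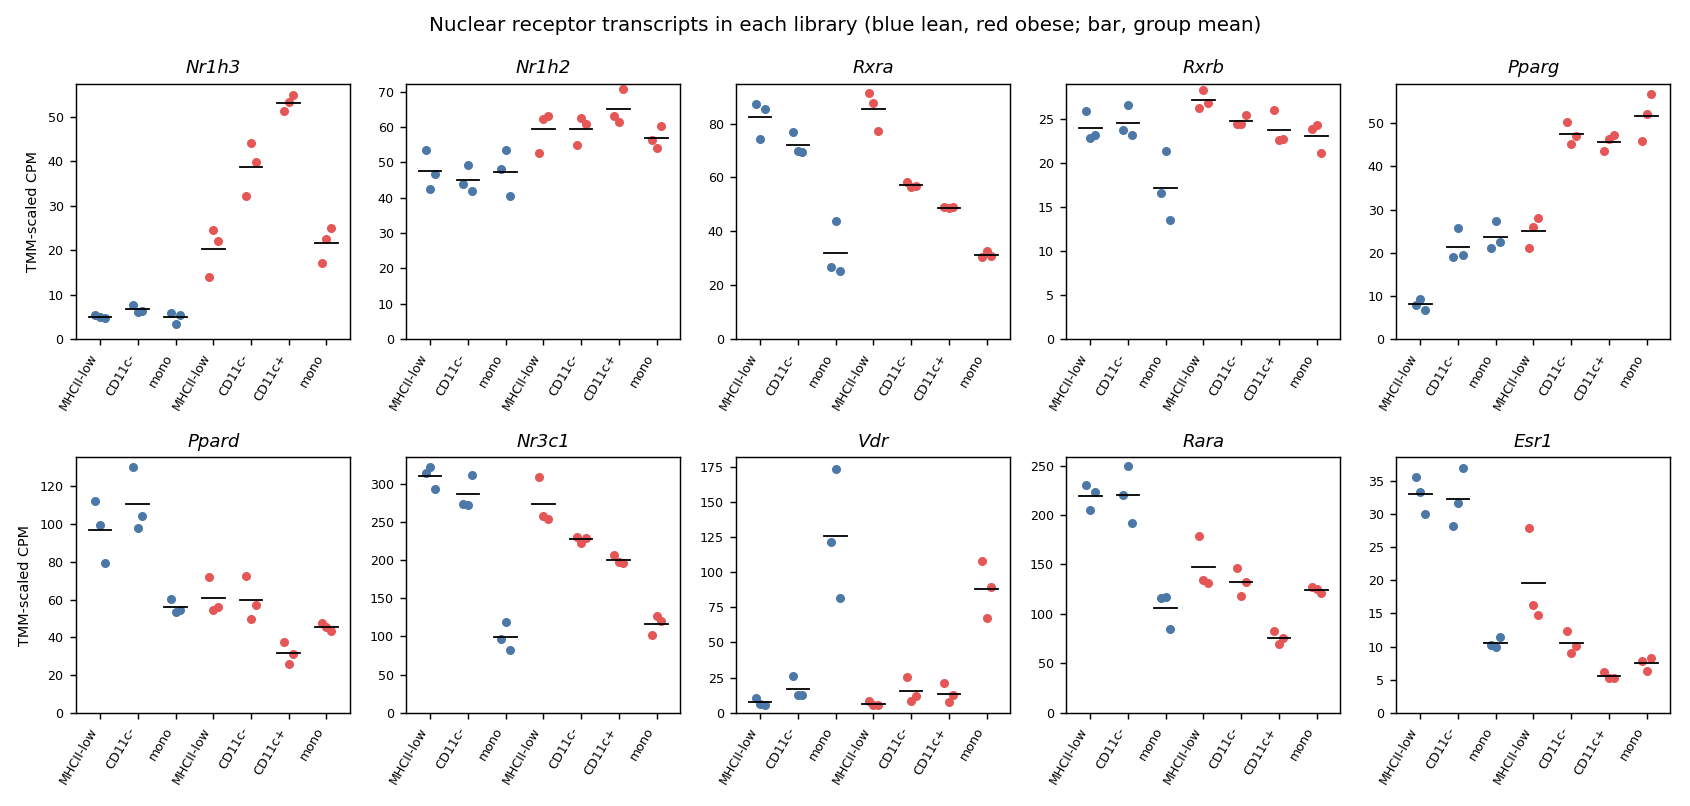
TMM-scaled CPM of the 10 receptor genes in each of the 21 libraries, by population (blue, lean; red, obese; bar, group mean of 3 libraries). Nr1h3 is at or below 7.74 CPM in every lean library and at or above 13.9 CPM in every obese one, and Vdr is at or above 67.4 CPM in the monocyte-derived libraries and at or below 25.9 CPM in the macrophage ones.

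Nr1h3, which encodes LXR alpha (chromosome 2, 91184061 to 91202834 on GRCm38), was low in every lean library. Replicates 1 to 3 stood at 5.34, 4.85 and 4.70 CPM in lean MHCII-low macrophages, 7.74, 5.98 and 6.40 CPM in lean CD11c-negative macrophages and 5.92, 3.42 and 5.35 CPM in lean monocyte-derived cells. In obese mice they stood at 13.9, 24.5 and 22.1 CPM in MHCII-low and 32.2, 44.0 and 39.8 CPM in CD11c-negative macrophages. Obese CD11c-positive macrophages had 51.2, 53.2 and 54.8 CPM and obese monocyte-derived cells 17.1, 22.4 and 24.9 CPM. No obese library overlapped a lean one. The log2 change with diet was 2.02 (SE 0.21, adjusted p = 1.47e-06) in MHCII-low macrophages, 2.52 (SE 0.21, adjusted p = 1.15e-07) in CD11c-negative macrophages and 2.14 (SE 0.22, adjusted p = 2.42e-06) in monocyte-derived cells. These 3 changes did not differ from each other past the threshold. The 95% interval of the difference between the first 2 was -0.12 to 1.13, like all intervals here for 1 gene and not adjusted over genes. Within obese mice the order was CD11c-positive, CD11c-negative, then monocyte-derived and MHCII-low cells, whose libraries overlapped. A gene on the same strand, Gm13783, covers 1.35% of its exon bases.

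Nr1h2, which encodes LXR beta (chromosome 7, 44549616 to 44553951), moved little. Lean libraries ran from 40.5 to 53.6 CPM and obese ones from 52.7 to 70.8 CPM, so the ranges met at their edges. It was higher in obese mice by a log2 change of 0.32 (SE 0.12, adjusted p = 0.0452) in MHCII-low and 0.40 (SE 0.12, adjusted p = 0.0143) in CD11c-negative macrophages, and by 0.26 (SE 0.12, adjusted p = 0.139) in monocyte-derived cells, which did not pass. The MHCII-low call was lost in 10 of 12 other settings (adjusted p up to 0.279), DESeq2 size factors among them. The CD11c-negative call was lost in 5 of 12, among them leaving out lean replicate 3, obese replicate 2 or obese replicate 3 (adjusted p = 0.0693, 0.0712 and 0.0692).

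Within a library the ratio of the 2 LXR genes per exon base does not depend on scaling. Nr1h3 stood at 0.140 ± 0.0109, 0.200 ± 0.0365 and 0.142 ± 0.0495 of Nr1h2 (SD, n = 3) in lean mice, in the order MHCII-low, CD11c-negative and monocyte-derived. In obese mice the ratio was 0.447 ± 0.0880, 0.864 ± 0.0777 and 0.503 ± 0.0853 in the same order, and 1.09 ± 0.0609 in CD11c-positive macrophages. CD11c-positive macrophages were thus the one group where every library held more Nr1h3 than Nr1h2 per exon base, from 1.03 to 1.16.

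**Figure D3:**
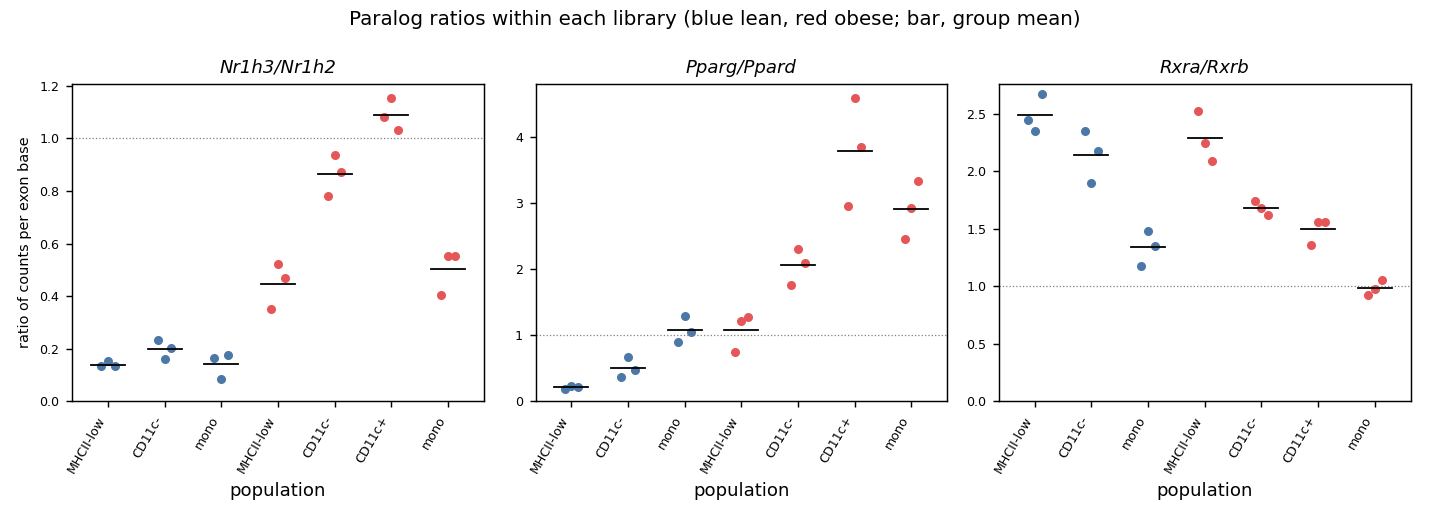
Ratio of counts per exon base of Nr1h3 to Nr1h2, Pparg to Ppard and Rxra to Rxrb in each library, by population (blue, lean; red, obese; bar, group mean; dotted line, equal levels). Nr1h3 passes Nr1h2 in obese CD11c-positive macrophages, at 1.09, and Pparg exceeds Ppard in every obese library except MHCII-low replicate 1, at 0.749.

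The LXR target genes that were called were mostly higher in obese mice. Of 12, 4 rose and 1 fell in MHCII-low macrophages, 4 rose and 0 fell in CD11c-negative macrophages, and 5 rose and 0 fell in monocyte-derived cells. The last 2 counts of 0 are from edgeR: at an unadjusted p under 0.05, 0 and 1 fell, and DESeq2 called 0 and 1 lower. The 5, 4 and 5 calls of 12 compare with 30.7%, 32.4% and 17.2% of all tested genes. Of all tested genes 16.8%, 16.8% and 7.44% were called higher. Their medians were 0.08, 0.28 and 0.27. Abcg1, a cholesterol exporter, rose from 35.6 ± 4.82 to 208 ± 71.9 CPM in MHCII-low macrophages, a change of 2.54 (SE 0.24, adjusted p = 5.42e-07) on the log2 scale, and by 2.92 (SE 0.24) in CD11c-negative macrophages and 1.78 (SE 0.23) in monocyte-derived cells. Lpcat3, which builds polyunsaturated phospholipids, rose by 0.97 (SE 0.16), 1.27 (SE 0.16) and 0.89 (SE 0.16). Srebf1, a regulator of fatty acid synthesis, rose in both macrophage populations, by 0.83 (SE 0.15) and 0.84 (SE 0.15), and stood at 0.29 (SE 0.15) in monocyte-derived cells (adjusted p = 0.184). Mylip, which marks the LDL receptor for degradation, fell in MHCII-low macrophages (-0.51, SE 0.13) and rose in monocyte-derived cells (1.22, SE 0.14). Apoe, the lipid carrier, rose from 163 ± 99.7 to 581 ± 223 CPM in monocyte-derived cells. In those cells the 5 called LXR targets became 8 without lean replicate 2 and 2 in a fit of the compared libraries alone.

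Pparg (chromosome 6, 115360951 to 115490399) was higher in obese mice in each population. Lean replicates 1 to 3 had 7.98, 9.21 and 6.81 CPM in MHCII-low macrophages, 19.1, 25.7 and 19.4 CPM in CD11c-negative macrophages and 21.1, 27.3 and 22.5 CPM in monocyte-derived cells. Obese replicates had 21.1, 26.1 and 28.1, then 50.4, 45.3 and 47.0, then 45.8, 52.2 and 56.7 CPM in the same populations, and 43.5, 46.3 and 47.4 CPM in CD11c-positive macrophages. Lean and obese libraries of a population did not overlap, and lean MHCII-low macrophages were the lowest group. The log2 change was 1.65 (SE 0.15, adjusted p = 2.38e-07), 1.15 (SE 0.14, adjusted p = 9.39e-06) and 1.12 (SE 0.14, adjusted p = 4.36e-05). Obese monocyte-derived, CD11c-negative and CD11c-positive cells overlapped at the top of the order. Pparg is also a gene of adipocytes, whose 7 markers summed to 37.8 to 60.2 CPM in lean and 7.45 to 13.7 CPM in obese macrophages. Adipoq, the adipocyte hormone, stood at or below 2.28 CPM in every library. The fibroblast and preadipocyte markers given above were higher in obese libraries, as Pparg was. The part of either marker set in the Pparg level was not tested.

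Ppard (chromosome 17, 28232700 to 28301474) took the other direction in macrophages. Lean MHCII-low replicates had 112, 99.7 and 79.5 CPM and obese ones 71.9, 54.5 and 56.1 CPM. Lean CD11c-negative replicates had 130.2, 98.1 and 104 CPM and obese ones 72.5, 49.9 and 57.2 CPM. Lean and obese libraries were apart in both, with log2 changes of -0.68 (SE 0.16, adjusted p = 0.00426) and -0.89 (SE 0.16, adjusted p = 0.00039). In monocyte-derived cells the means were 56.0 ± 3.62 CPM (lean) and 45.3 ± 2.10 CPM (obese; SD, n = 3), and the change of -0.31 (SE 0.16, adjusted p = 0.181) did not pass. Obese CD11c-positive macrophages were the lowest group, at 37.5, 25.7 and 31.3 CPM. The ratio of Pparg to Ppard per exon base went from 0.211 ± 0.0276 in lean to 1.08 ± 0.289 in obese MHCII-low macrophages (SD, n = 3), a description with no test. It was 0.504 ± 0.149 and 2.06 ± 0.273 in CD11c-negative macrophages, 1.08 ± 0.203 and 2.91 ± 0.439 in monocyte-derived cells, and 3.80 ± 0.820 in CD11c-positive macrophages.

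Most PPAR target genes were higher in obese mice. Of 12, 10 rose in MHCII-low macrophages, where 16.8% of all tested genes were called higher, 9 in CD11c-negative macrophages (16.8%) and 8 in monocyte-derived cells (7.44%). In each, 0 fell by edgeR, 0 at an unadjusted p under 0.05 and 0 by DESeq2. Their median log2 changes were 0.94, 0.87 and 1.05. Lpl, which releases fatty acids from lipoproteins, rose from 219.5 ± 49.8 to 1776 ± 739.8 CPM in MHCII-low macrophages, a log2 change of 3.02 (SE 0.40, adjusted p = 4.16e-05), by 2.79 (SE 0.39) in CD11c-negative macrophages and by 1.35 (SE 0.37) in monocyte-derived cells. Fabp5, a fatty acid carrier, rose by 2.74 (SE 0.40) and 3.21 (SE 0.40) in the macrophages and stood at 0.76 (SE 0.37) in monocyte-derived cells (adjusted p = 0.158). Ucp2, a mitochondrial carrier, rose by 1.11 (SE 0.16), 1.19 (SE 0.16) and 0.68 (SE 0.16). In monocyte-derived cells the lipid droplet coat Plin2 rose from 172 ± 75.7 to 622 ± 115 CPM and the fatty acid receptor Cd36 from 290.5 ± 171 to 1162 ± 231 CPM, while Cd36 did not pass in MHCII-low (0.49, SE 0.25) or CD11c-negative macrophages (0.49, SE 0.25). Without replicate 2 of any obese group, 6 rose in MHCII-low macrophages. In monocyte-derived cells 5 rose without lean replicate 3, and 5 in a fit of the compared libraries alone.

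**Figure D4:**
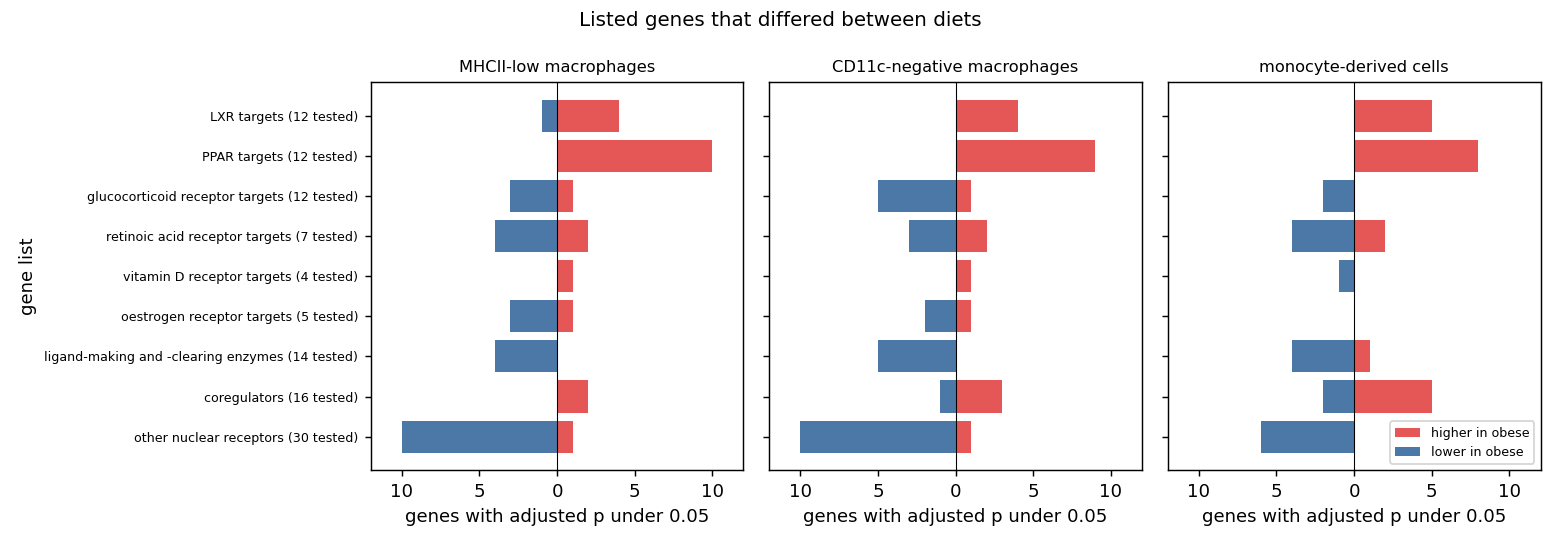
Number of genes of each list called higher (red, to the right) or lower (blue, to the left) in obese than in lean mice, 1 panel per population, with the number tested beside each list's name. PPAR targets lie on the higher side, at 10, 9 and 8 genes, and other nuclear receptors mostly on the lower side, at 10, 10 and 6 genes.

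The shared partner Rxra (chromosome 2, 27676440 to 27762957) did not differ with diet past the threshold. Its log2 change was 0.05 (SE 0.14, adjusted p = 0.802) in MHCII-low macrophages, -0.33 (SE 0.14, adjusted p = 0.0766) in CD11c-negative macrophages and -0.04 (SE 0.14, adjusted p = 0.876) in monocyte-derived cells. The interval in MHCII-low macrophages was -0.25 to 0.35, and in monocyte-derived cells it was -0.35 to 0.27. DESeq2 called the CD11c-negative change (-0.37, adjusted p = 0.0332), as did a fit of the compared libraries alone (-0.33, adjusted p = 0.0171). Rxra differed by population more than by diet. Lean MHCII-low macrophages had 87.3, 74.2 and 85.6 CPM and lean CD11c-negative ones 77.0, 69.7 and 69.5 CPM, against 26.9, 43.7 and 25.3 CPM in lean monocyte-derived cells. Obese replicates had 91.5, 87.6 and 77.3 CPM in MHCII-low macrophages, 58.5, 56.3 and 56.9 CPM in CD11c-negative and 48.9, 48.7 and 48.9 CPM in CD11c-positive ones, and 30.5, 32.8 and 30.8 CPM in monocyte-derived cells. All monocyte-derived libraries lay below all macrophage libraries. Rxrb (chromosome 17, 34031812 to 34038399) ran from 13.6 to 28.3 CPM over all libraries. It rose with diet in monocyte-derived cells, from 16.6, 21.4 and 13.6 to 23.9, 24.3 and 21.2 CPM, a log2 change of 0.42 (SE 0.13, adjusted p = 0.0363) with overlapping libraries. That call was lost in 7 of 12 other settings, among them leaving out lean replicate 1 or 3 or any obese replicate, with adjusted p up to 0.273. Per exon base Rxra stood at 2.49 ± 0.166 times Rxrb in lean MHCII-low macrophages and at 0.988 ± 0.0639 in obese monocyte-derived cells (SD, n = 3).

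Nr3c1, the glucocorticoid receptor, followed the population more than the diet. Lean replicates had 314, 322 and 292 CPM in MHCII-low macrophages, 274, 272 and 312 CPM in CD11c-negative macrophages and 96.1, 119 and 82.6 CPM in monocyte-derived cells. Obese replicates had 308, 258 and 254, then 230.4, 222 and 228, then 101, 127 and 119.5 CPM in the same populations, and 207, 197 and 195 CPM in CD11c-positive macrophages. Every monocyte-derived library lay below every macrophage library. The diet change was -0.33 (SE 0.12, adjusted p = 0.0408) in CD11c-negative macrophages, a call lost in 7 of 12 other settings, among them leaving out lean replicate 1 or 3 or any obese replicate (adjusted p up to 0.264). It was -0.18 (SE 0.12, adjusted p = 0.258) in MHCII-low macrophages and 0.22 (SE 0.12, adjusted p = 0.214) in monocyte-derived cells, where leaving out lean replicate 2 gave 0.37 (adjusted p = 0.0192).

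Of 12 glucocorticoid receptor targets, 1 rose and 3 fell in MHCII-low macrophages, 1 rose and 5 fell in CD11c-negative macrophages, and 0 rose and 2 fell in monocyte-derived cells. In the last, 2 were higher at an unadjusted p under 0.05 and DESeq2 called 0 higher. The 4, 6 and 2 calls of 12 compare with 30.7%, 32.4% and 17.2% of all tested genes. The haemoglobin scavenger receptor Cd163 fell, with log2 changes of -1.09 (SE 0.20), -2.72 (SE 0.21) and -1.26 (SE 0.20). Errfi1, a brake on growth factor receptors, fell, with log2 changes of -0.97 (SE 0.20) and -1.20 (SE 0.20), and the transcription factor Zbtb16 with -0.93 (SE 0.13) and -0.67 (SE 0.13), in the macrophages. The kinase Sgk1 rose there, by 0.83 (SE 0.21) and 1.35 (SE 0.21). Tsc22d3, a widely used marker of glucocorticoid action that the naming rule did not pick, stood at 0.00 (SE 0.17), 0.06 (SE 0.17) and -0.18 (SE 0.17), none past the threshold. The list's medians were -0.39, -0.27 and -0.19. The 2 called in monocyte-derived cells became 4 without lean replicate 2 and 1 without lean replicate 1 or 3, or obese replicate 2 or 3.

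Enzymes that make or clear the receptors' ligands were mostly lower where they were called. Of 14 tested, 4 fell in MHCII-low macrophages, 5 in CD11c-negative macrophages and 4 in monocyte-derived cells, and 0, 0 and 1 rose. Of all tested genes 13.8%, 15.6% and 9.76% were called lower. The counts of 0 are from edgeR, and at an unadjusted p under 0.05 and by DESeq2 0, 0 and 1 were higher. The list medians were -0.81, -0.82 and -0.86. They include genes near the floor, such as Cyp7b1, at 0.238 CPM in obese MHCII-low and 0.182 CPM in obese CD11c-negative macrophages. Hsd11b1, which regenerates active glucocorticoid, fell, with log2 changes of -1.79 (SE 0.31), -1.58 (SE 0.30) and -1.16 (SE 0.31), from levels under 5 CPM. Aldh1a2, which makes retinoic acid, fell from 14.5 ± 0.966 to 3.98 ± 1.27 CPM in MHCII-low and from 32.1 ± 7.87 to 7.17 ± 2.34 CPM in CD11c-negative macrophages. Alox15, a lipoxygenase whose products bind PPARs, fell in MHCII-low macrophages from 23.1 ± 13.9 to 7.66 ± 2.29 CPM. Rdh10, which makes retinaldehyde, rose in monocyte-derived cells by 0.77 (SE 0.16). The 5 called in CD11c-negative macrophages became 3 without lean replicate 1 or obese replicate 3. The 5 called in monocyte-derived cells became 1 when obese replicate 3 was left out, 2 when obese replicate 1 was, 3 when lean replicate 3 or obese replicate 2 was, and 0 in a fit of the compared libraries alone.

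Vdr (chromosome 15, 97854425 to 97910630) separated monocyte-derived cells from macrophages on both diets. Lean replicates 1 to 3 had 122, 173 and 81.4 CPM in monocyte-derived cells, 10.4, 6.16 and 5.51 CPM in MHCII-low macrophages and 25.9, 12.5 and 12.7 CPM in CD11c-negative macrophages. Obese replicates had 108, 67.4 and 89.7 CPM in monocyte-derived cells, 8.68, 5.33 and 5.48 CPM in MHCII-low, 25.2, 8.28 and 11.9 CPM in CD11c-negative and 21.02, 7.50 and 12.3 CPM in CD11c-positive macrophages. The 6 monocyte-derived libraries lay above the 15 macrophage libraries without overlap, while the macrophage groups overlapped each other. The log2 difference between monocyte-derived cells and MHCII-low macrophages was 4.10 (SE 0.50, adjusted p = 3.86e-06) in lean and 3.76 (SE 0.49, adjusted p = 1.31e-05) in obese mice. Diet changes were -0.18 (SE 0.47, adjusted p = 0.801), -0.17 (SE 0.45, adjusted p = 0.794) and -0.51 (SE 0.43, adjusted p = 0.424), with intervals as wide as -1.43 to 0.41 in monocyte-derived cells. In all 5 macrophage groups replicate 1 had the highest Vdr, and in the same libraries the 5 monocyte markers summed highest, from 81.4 to 314 CPM against 44.9 to 204 CPM in replicates 2 and 3. The part of those markers in the Vdr level was not tested. Of 4 tested vitamin D receptor targets, Hilpda, a lipid droplet protein that hypoxia also induces, rose in MHCII-low (1.61, SE 0.17) and CD11c-negative macrophages (1.58, SE 0.17), and stood at 0.17 (SE 0.17) in monocyte-derived cells (adjusted p = 0.487). There was 1 call of 4 in each population, beside 30.7%, 32.4% and 17.2% of all tested genes. The list medians were -0.44, -0.04 and -0.67. They include Trpv6, at 0.0104 CPM in obese MHCII-low and 0 CPM in obese CD11c-negative macrophages. No other was called in macrophages by edgeR, where 1 was lower in each at an unadjusted p under 0.05 and DESeq2 called 0 lower. In monocyte-derived cells 1 fell and 0 rose, with 0 higher at an unadjusted p under 0.05 and by DESeq2. That became 2 calls without lean replicate 2 and 0 without obese replicate 3.

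Rara (chromosome 11, 98927818 to 98974942) was lower in obese than in lean macrophages of both populations. Lean replicates had 230.2, 205 and 223 CPM in MHCII-low macrophages, 220.2, 249 and 192 CPM in CD11c-negative macrophages and 116, 117 and 84.5 CPM in monocyte-derived cells. Obese replicates had 179, 134 and 131, then 147, 118 and 133, then 128, 125 and 121 CPM. Obese CD11c-positive macrophages had 82.5, 69.1 and 75.5 CPM, the lowest group. In both macrophage populations lean and obese libraries were apart, with log2 changes of -0.57 (SE 0.14, adjusted p = 0.00503) and -0.74 (SE 0.14, adjusted p = 0.000557). In monocyte-derived cells every obese library lay above every lean one, yet the change of 0.23 (SE 0.14, adjusted p = 0.265) did not pass. The diet change in monocyte-derived cells exceeded that in CD11c-negative macrophages by 0.96 (SE 0.20, adjusted p = 0.00624) and that in MHCII-low macrophages by 0.80 (SE 0.20, adjusted p = 0.0252), differences that share the monocyte-derived libraries. The second was lost without lean MHCII-low replicate 1 or 3 (adjusted p = 0.0518 and 0.0537), without obese MHCII-low replicate 2 or 3 (0.0592 and 0.0572) and without replicate 2 of any obese group (0.112). A fit of the compared libraries alone also lost it, so it was lost in 6 of 19 other settings.

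Of 7 tested retinoic acid receptor targets, 2 rose and 4 fell in MHCII-low macrophages, 2 rose and 3 fell in CD11c-negative macrophages and 2 rose and 4 fell in monocyte-derived cells. Dhrs3, which turns retinaldehyde back to retinol, rose by 0.59 (SE 0.18), 0.78 (SE 0.18) and 0.83 (SE 0.18). Tgm2, a transglutaminase, rose from 51.0 ± 12.1 to 96.4 ± 23.1 CPM in MHCII-low and from 50.3 ± 8.17 to 157 ± 23.9 CPM in CD11c-negative macrophages. Cyp26b1, which degrades retinoic acid, fell, with log2 changes of -2.04 (SE 0.33), -2.89 (SE 0.35) and -1.73 (SE 0.36), from lean means of 7.05 ± 2.34, 5.64 ± 2.15 and 2.65 ± 1.05 CPM. Rarb, itself a retinoic acid receptor, fell, with log2 changes of -1.46 (SE 0.36), -1.69 (SE 0.38) and -1.83 (SE 0.33). It was low, with obese means of 0.651 CPM in MHCII-low and 0.442 CPM in CD11c-negative macrophages. The 6, 5 and 6 calls of 7 stand beside 30.7%, 32.4% and 17.2% of all tested genes. The list medians were -1.12, -0.30 and -1.49. They include Stra6, at 0.0108 CPM in obese MHCII-low and 0.0127 CPM in obese CD11c-negative macrophages. The 4 that fell in monocyte-derived cells and the 2 that rose there became 1 call in a fit of the compared libraries alone.

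Esr1 (chromosome 10, 4611593 to 5005614), oestrogen receptor alpha, was the least abundant per length and fell with diet in macrophages. Lean replicates had 35.7, 33.4 and 30.0 CPM in MHCII-low and 28.2, 31.6 and 37.0 CPM in CD11c-negative macrophages. Obese replicates had 27.9, 16.3 and 14.7 CPM in MHCII-low, 12.3, 9.03 and 10.1 CPM in CD11c-negative and 6.15, 5.29 and 5.20 CPM in CD11c-positive macrophages. Lean and obese libraries did not overlap, and obese MHCII-low replicate 1 stood well above replicates 2 and 3. The log2 change was -0.75 (SE 0.19, adjusted p = 0.00587) in MHCII-low and -1.62 (SE 0.19, adjusted p = 5.63e-06) in CD11c-negative macrophages. Monocyte-derived cells had 10.3, 9.88 and 11.4 CPM on the normal diet and 7.88, 6.36 and 8.21 CPM on the high fat diet, and the change of -0.49 (SE 0.20, adjusted p = 0.0905) did not pass although the libraries were apart. The change in monocyte-derived cells was above that in CD11c-negative macrophages by 1.13 (SE 0.28, adjusted p = 0.0186), lost without lean CD11c-negative replicate 3, obese monocyte-derived replicate 3 or replicate 2 of any obese group (adjusted p = 0.0545, 0.0515 and 0.0503). Of 5 tested oestrogen receptor targets, the cyclin Ccnd1 rose in MHCII-low (1.33, SE 0.19) and CD11c-negative macrophages (0.64, SE 0.19), and 3 and 2 fell. The edgeR test called 0 in monocyte-derived cells, where 1 was higher and 2 lower at an unadjusted p under 0.05 and DESeq2 called 0. The 4, 3 and 0 calls of 5 stand beside 30.7%, 32.4% and 17.2% of all tested genes. The list medians were -1.18, -0.74 and -0.42. The list includes genes near the floor. In obese MHCII-low and CD11c-negative macrophages Pgr stood at 0.0108 and 0.0110 CPM and Greb1 at 0.0497 and 0.0693 CPM. The part of such low levels in the list's changes was not tested. The growth factor binding protein Igfbp4 fell in CD11c-negative macrophages, from 322 ± 5.74 to 193 ± 16.4 CPM. Leaving out lean MHCII-low replicate 2 or obese MHCII-low replicate 2 left 1 of the 4 calls in MHCII-low macrophages and leaving out obese replicate 1 left 2. Leaving out lean or obese CD11c-negative replicate 3 left 1 of 3.

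Between MHCII-low and CD11c-negative macrophages, 0 of 10 members differed in their diet change by edgeR, where 0% of all genes did. At an unadjusted p under 0.05, 2 members and 634 genes differed, and DESeq2 called 0 members and 3 genes. The intervals reached -1.45 to -0.30 for Esr1, -0.94 to -0.06 for Pparg and -0.59 to 0.26 for Rara. Between monocyte-derived cells and MHCII-low macrophages 1 member differed, against 4.33% of all genes (1.9% higher, 2.43% lower), and between monocyte-derived cells and CD11c-negative macrophages 2 did, against 6.36% (3.85% higher, 2.51% lower). Without lean monocyte-derived replicate 2 these became 2 and 5 members, and the genes called went from 993 to 2526 and from 1459 to 3200. By the main test the other 8 members were called in neither comparison with monocyte-derived cells. Both fits with a replicate block (below) also called a difference for Pparg against MHCII-low, and for Nr3c1 and Ppard against CD11c-negative macrophages.

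Within obese mice Esr1 was lower at both steps from MHCII-low to CD11c-negative and on to CD11c-positive macrophages, comparisons that share the CD11c-negative libraries. The first Esr1 call was lost in 5 of 13 other settings and the second in 4 of 13. From MHCII-low to CD11c-negative macrophages 4 of 10 members were called, against 3.05% of all genes (1.19% higher, 1.85% lower). Nr1h3 was higher in CD11c-negative macrophages by 0.94 (SE 0.20, adjusted p = 0.00785) and Pparg by 0.92 (SE 0.14, adjusted p = 0.000592), while Esr1 was lower, with a log2 difference of -0.91 (SE 0.19, adjusted p = 0.00904) and so was Rxra, with -0.58 (SE 0.14, adjusted p = 0.0251). Without obese MHCII-low replicate 1 the calls of Nr1h3 (0.73, adjusted p = 0.0713), Esr1 (-0.56, adjusted p = 0.113) and Rxra (-0.53, adjusted p = 0.145) were lost. Rxra was also lost without any other of the 6 libraries, and Esr1 without CD11c-negative replicate 2 or 3 (adjusted p = 0.0708 and 0.0508). Over all other settings, the Nr1h3 call was lost in 3 of 13 and the Rxra call in 7 of 13. Vdr, at 1.22 (SE 0.46), did not pass (adjusted p = 0.217), while both fits with a replicate block (below) called it. All genes called were 699, and 281 without MHCII-low replicate 1 and 400, 406 and 357 without CD11c-negative replicates 1, 2 and 3.

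From CD11c-negative to CD11c-positive macrophages 3 of 10 were called, all lower, against 3.49% of all genes (1.38% higher, 2.11% lower). Ppard was lower, with a log2 difference of -0.93 (SE 0.16, adjusted p = 0.00403), Rara with -0.81 (SE 0.14, adjusted p = 0.00403) and Esr1 with -0.92 (SE 0.20, adjusted p = 0.0131). By the main edgeR test 0 were higher, 1 was at an unadjusted p under 0.05, and DESeq2 called 0 higher. The 6 endothelial markers summed to 113 to 172 CPM in CD11c-positive and 55.4 to 107 CPM in CD11c-negative libraries, without overlap, and their part in these differences was not tested. Nr1h3, whose 3 CD11c-positive libraries all lay above the CD11c-negative ones, stood at 0.46 (SE 0.19, adjusted p = 0.198). Both fits with a replicate block (below) called Nr1h3 higher. Pparg stood at -0.06 (SE 0.14, adjusted p = 0.881) with an interval of -0.36 to 0.25. Without CD11c-positive replicate 2, 0 of the 3 calls were left (adjusted p = 0.0540 for Ppard, 0.0557 for Rara and 0.0930 for Esr1). Esr1 was also lost without CD11c-negative replicate 1 (0.0970) or CD11c-positive replicate 3 (0.0807). The 801 genes called became 101 without CD11c-positive replicate 2, 184 and 512 without replicates 3 and 1, and 185, 456 and 287 without CD11c-negative replicates 1, 2 and 3.

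Monocyte-derived cells had a receptor profile of their own, high in Vdr and low in Rxra and Nr3c1. Against CD11c-positive macrophages 6 of 10 members were called in obese mice, beside 38.7% of all genes (19.3% higher, 19.4% lower). Vdr was higher by 2.70 (SE 0.46, adjusted p = 0.000233), Rara by 0.72 (SE 0.14, adjusted p = 0.000414) and Ppard by 0.52 (SE 0.16, adjusted p = 0.0152). Nr1h3 was lower, with a log2 difference of -1.30 (SE 0.20, adjusted p = 3.03e-05), Nr3c1 with -0.79 (SE 0.12, adjusted p = 3.99e-05) and Rxra with -0.64 (SE 0.14, adjusted p = 0.00147). The Ppard call was lost without CD11c-positive replicate 2 or monocyte-derived replicate 1 (adjusted p = 0.111 and 0.0618). Pparg stood at 0.17 (SE 0.14, adjusted p = 0.342), while 9 of 12 PPAR targets were lower in monocyte-derived cells, with a median of -1.08 beside 0.09 over all genes. Among them Fabp4, a fatty acid carrier, was 39.0 ± 9.28 against 182 ± 10.1 CPM and Cd36 1162 ± 231 against 4050 ± 379 CPM. Of 12 LXR targets 6 were lower and 1 higher, with Apoe at 581 ± 223 against 4013 ± 608 CPM and the sterol exporter Abca1 at 624 ± 137 against 1789 ± 176 CPM. Of 12 glucocorticoid receptor targets 4 were higher and 0 lower by edgeR, with 0 lower at an unadjusted p under 0.05 and by DESeq2. The decoy receptor Il1r2 led them at 4.32 (SE 0.46). Without replicate 2 of any obese group 2 were higher.

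**Figure D5:**
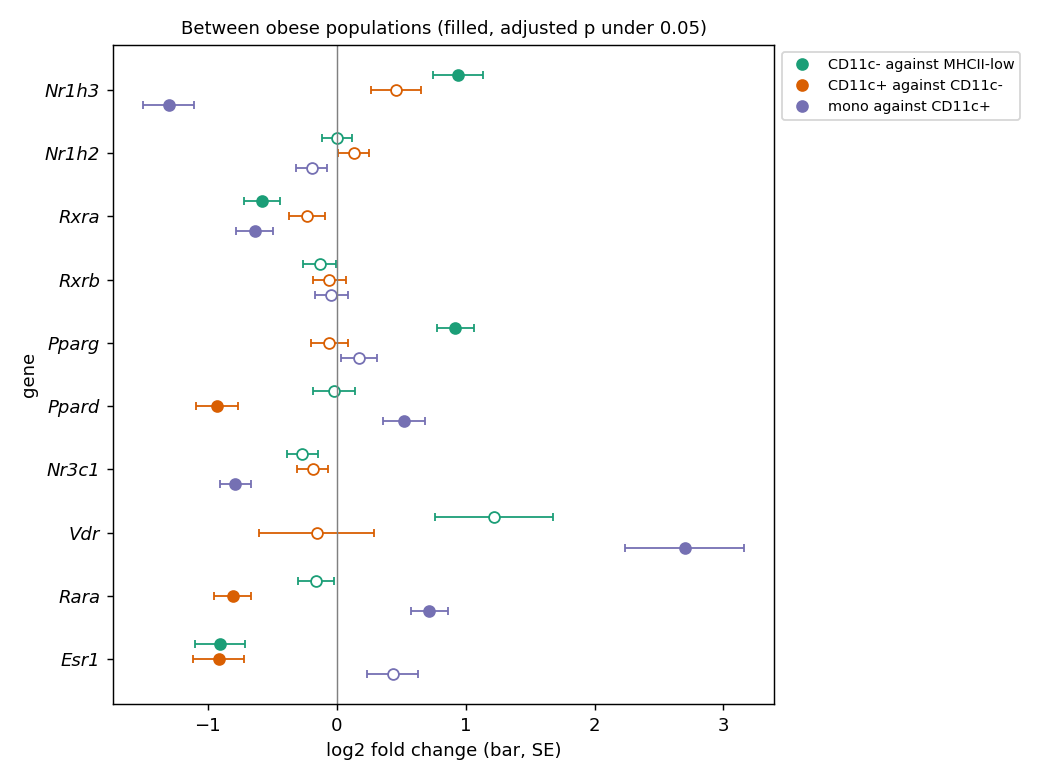
Log2 fold change of each receptor gene between obese populations: CD11c-negative against MHCII-low macrophages, CD11c-positive against CD11c-negative macrophages, and monocyte-derived cells against CD11c-positive macrophages (points, with SE bars; filled where the adjusted p was under 0.05). Vdr lies at 2.70 in monocyte-derived cells against CD11c-positive macrophages, and Ppard, Rara and Esr1 lie between -0.81 and -0.93 in CD11c-positive against CD11c-negative macrophages.

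Against MHCII-low macrophages 6 of 10 members were called in obese monocyte-derived cells (32.8% of all genes, 15.3% higher and 17.5% lower) and 8 in lean ones (46% of all genes, 25% higher and 21% lower). Those 2 comparisons share no library. Pparg was higher in monocyte-derived cells by 1.04 (SE 0.14, adjusted p = 7.69e-06) in obese and 1.57 (SE 0.15, adjusted p = 3.66e-08) in lean mice. Rxra was lower, with a log2 difference of -1.45 (SE 0.14, adjusted p = 1.25e-07) and -1.35 (SE 0.15, adjusted p = 1.61e-07), Nr3c1 with -1.24 (SE 0.12, adjusted p = 1.13e-07) and -1.64 (SE 0.12, adjusted p = 1.2e-09), and Esr1 with -1.39 (SE 0.20, adjusted p = 1.06e-05) and -1.65 (SE 0.20, adjusted p = 7.25e-07). Rara was lower in lean mice, with -1.04 (SE 0.14, adjusted p = 3.69e-06), and stood at -0.25 (SE 0.14, adjusted p = 0.184) in obese mice. Ppard was lower, with a log2 difference of -0.79 (SE 0.16, adjusted p = 0.000501) in lean mice, and of -0.42 (SE 0.16, adjusted p = 0.0493) in obese mice, where it passed in 4 of 13 other settings and was lost without any 1 of the 6 libraries. Rxrb was lower in lean mice, with -0.47 (SE 0.13, adjusted p = 0.00656). Over all genes the lean median was 0.15. Between lean CD11c-negative and MHCII-low macrophages 1 member was called, against 1.3% of all genes (1.05% higher, 0.253% lower): Pparg was higher by 1.42 (SE 0.15, adjusted p = 8.17e-06). Nr1h3, at 0.43 (SE 0.21, adjusted p = 0.508), and Vdr, at 1.21 (SE 0.46, adjusted p = 0.325), did not pass. The fit with a replicate block by title number (below) called Vdr there. The 298 genes called there became 182, 191 and 141 without MHCII-low replicates 1, 2 and 3, and 190 and 162 without CD11c-negative replicates 1 and 3.

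Among other nuclear receptors 30 of 34 could be tested. With diet, 1 rose and 10 fell in MHCII-low macrophages, 1 rose and 10 fell in CD11c-negative macrophages and 0 rose and 6 fell in monocyte-derived cells, where 2 were higher at an unadjusted p under 0.05 and DESeq2 called 0 higher. The 11, 11 and 6 calls of 30 stand beside 30.7%, 32.4% and 17.2% of all tested genes, of which 13.8%, 15.6% and 9.76% were lower. Their medians were -0.86, -0.93 and -0.46. These counts and medians mix expressed receptors with some near the floor. In obese MHCII-low and CD11c-negative macrophages Ppara stood at 0.0829 and 0.0127 CPM and Hnf4a at 0.154 and 0.152 CPM. The part of such low levels in the list's changes was not tested. Rarb and Pgr stand in this list and in a target list. Rora, an oxysterol-binding orphan receptor, fell from 119.9 ± 15.9 to 66.6 ± 14.5 CPM in MHCII-low and from 97.7 ± 11.8 to 40.5 ± 1.79 CPM in CD11c-negative macrophages. Nr3c2, the mineralocorticoid receptor, fell, with log2 changes of -1.04 (SE 0.19) and -1.34 (SE 0.20). The count of 11 calls fell to 5 to 7 without any 1 of lean MHCII-low replicates 2 and 3 or obese replicates 1, 2 and 3, and to 7 without lean CD11c-negative replicate 3 or obese replicate 1 or 2. In monocyte-derived cells the 6 calls became 14 without lean replicate 2, 1 without lean replicate 3 and 2 without obese replicate 3. Nr4a3, an orphan receptor induced by activation, stood at 990.5 ± 214 CPM in obese monocyte-derived cells against 125 ± 21.5 CPM in the CD11c-positive group, a log2 difference of 2.99 (SE 0.22, adjusted p = 2.33e-08).

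Coregulators, which receptors recruit to act on chromatin, had small changes with diet. Of 16, 2 rose and 0 fell in MHCII-low macrophages, 3 rose and 1 fell in CD11c-negative macrophages and 5 rose and 2 fell in monocyte-derived cells. In MHCII-low macrophages 1 was lower at an unadjusted p under 0.05, and DESeq2 called 3 lower. The 2, 4 and 7 calls of 16 stand beside 30.7%, 32.4% and 17.2% of all tested genes. The list medians were 0.13, 0.14 and 0.20. Hdac3, a histone deacetylase of corepressor complexes, was higher by 0.42 (SE 0.12, adjusted p = 0.0145), 0.38 (SE 0.12, adjusted p = 0.0242) and 0.39 (SE 0.12, adjusted p = 0.037). Its partner Tbl1xr1 rose in the macrophages by 0.39 (SE 0.10) and 0.34 (SE 0.10). In monocyte-derived cells the corepressor Nrip1 fell, with a log2 change of -0.61 (SE 0.13). Both MHCII-low calls were lost without obese replicate 3, and 1 of them without obese replicate 2 or lean replicate 3. The 4 calls in CD11c-negative macrophages became 0 when obese replicate 3 was left out, 1 when lean replicate 3 was and 2 when obese replicate 2 was, and the 7 in monocyte-derived cells became 1 without lean replicate 3 and 3 without obese replicate 3.

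The genes whose log2 CPM followed each receptor most closely over the 21 libraries, among 8776 protein-coding genes of at least 10 CPM in their highest group, are given as a description, since the libraries share diets, sorts and depth. Nr1h3 was followed by Mgat5 (Pearson r = 0.982), Extl3 (0.978) and Map4k3 (0.976), and Pparg by Ndrg1 (0.955), Mpeg1 (0.949) and Basp1 (0.949). Nr3c1 was followed by Dusp7 (0.991), C1qtnf1 (0.989) and P2rx7 (0.989), and Vdr by Gfod1 (0.986), Gpr35 (0.985) and Lsp1 (0.983). Esr1 was followed by Cd163 (0.983), Ifi203 (0.972) and Wsb1 (0.968), Rara by Srek1 (0.971), Zranb2 (0.968) and Tlr5 (0.961), and Ppard by Ccdc97 (0.957) and Ralgps2 (0.956). Rxra was followed by Agtrap, Scamp1 and Snx2 (each 0.976), Nr1h2 by Tyrobp, Cox7a2 and Babam1 (0.958 to 0.961), and Rxrb by Tor1aip1, Slc25a36 and Foxj2 (0.940 to 0.946). Among the receptors themselves Rxra and Nr3c1 ran together (r = 0.957), as did Ppard with Esr1 (0.926) and Rara (0.921). Pparg and Esr1 ran oppositely (r = -0.814), as did Vdr and Nr3c1 (-0.874).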

How the data were processed

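Reads had been processed before deposit: per the submitters' processing notes the tools and build named were GRCm38, STAR 2.6.0a, Trim Galore 0.4.5, bcl2fastq, and featureCounts from Subread 1.4.6-p5. The strand setting and annotation are not given in the sources used here. Antisense overlaps cannot be separated. The deposited table holds raw counts per gene. RNA came from a PicoPure kit and an Ovation mouse RNA-seq library, per the labels' protocols. Gene IDs were matched to GENCODE M21 (54409 of 54532 without version). The counts were tested with edgeR 4.0.16 in R 4.3.3 (limma 3.58.1): TMM scaling, filterByExpr, 7 group means, robust quasi-likelihood, 14 residual degrees of freedom. Benjamini-Hochberg adjusted p under 0.05 over 22935 genes made a call. Standard errors follow from the F statistic. Log2 CPM used a prior count of 2. The statistics were tested on simulated data, with libraries drawn independently and the same spread for all genes. That run could not test the shared deviation of same-numbered samples (below) or the uneven agreement of replicates. Alternatives were DESeq2 1.42.0, its size factors, no filter (at least 1 count), the compared libraries alone, replicate blocks, and leaving out libraries. Leaving out replicate 2 of every obese group was added after seeing the data. Library totals limit the precision of low genes, with 63 counts the fewest for a receptor. The members and gene lists were chosen with earlier results of these data known. In each comparison up to 4 called genes of smallest p were named per list, and 3 most alike genes per receptor. Some genes these rules name are not reported here. Tsc22d3, and some values of named genes in other populations, were chosen outside that rule after values were seen.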

Additional observations from a re-analysis of the deposited data

Results flagged for a closer look

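In 3 cases the diet change of a receptor differed between populations by the test of the difference itself (edgeR, adjusted over all genes). The Rara change in monocyte-derived cells exceeded that in MHCII-low macrophages by 0.80 (SE 0.20, adjusted p = 0.0252) and that in CD11c-negative macrophages by 0.96 (SE 0.20, adjusted p = 0.00624). The Esr1 change in monocyte-derived cells exceeded that in CD11c-negative macrophages by 1.13 (SE 0.28, adjusted p = 0.0186). The Rara call against MHCII-low macrophages was lost in 6 of 19 other settings and the Esr1 call in 3 of 19. The Rara call against CD11c-negative macrophages was lost in 0 of 19. Lean Rara stood at 106 ± 18.6 CPM in monocyte-derived cells, below 219 ± 13.1 and 220.5 ± 28.6 CPM in the macrophages, and the obese levels were 124 ± 3.47, 148 ± 27.0 and 132 ± 14.6 CPM (SD, n = 3). All 3 differences share the monocyte-derived libraries, whose lean replicates agreed least.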

How the results depend on the processing

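Of 47 called receptor results 32 kept their call under every alternative run and 0 changed sign; of 73 uncalled ones 59 were never called, and 28 changed sign in some setting without a call. The number of called genes moved more, and the cause was not tested. With DESeq2 it became 1233 (obese CD11c-negative against MHCII-low), 2159 (CD11c-positive against CD11c-negative), 593 (lean CD11c-negative against MHCII-low), and for the diet difference 1829 (monocyte-derived minus MHCII-low), 2488 (monocyte-derived minus CD11c-negative) and 3 (CD11c-negative minus MHCII-low). With no filter these were 1215, 1435, 633 (with 2 receptors), 1632 and 123, all but the difference between monocyte-derived and CD11c-negative cells. Fits of the compared libraries alone gave 212 for diet in monocyte-derived cells, 2972 (5 receptors) for CD11c-positive against CD11c-negative, 639 for lean CD11c-negative and 6370 for lean monocyte-derived against MHCII-low, 306 (0 receptors) and 613 for the diet differences of monocyte-derived cells, and 2 receptors for obese CD11c-negative against MHCII-low. Vdr, with replicate 1 high in macrophages, was called with no filter between CD11c-negative and MHCII-low macrophages (1.23 in obese mice, adjusted p = 1.08e-09). These obese libraries overlapped, at 8.28 to 25.2 against 5.33 to 8.68 CPM, and the main edgeR test gave an adjusted p of 0.217. The unfiltered p-value is thus not read as the spread between these samples, and why it was so small was not tested.

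Leaving out 1 library gave 3692 to 6832 called genes for diet in MHCII-low macrophages, 4871 to 6703 in CD11c-negative macrophages and 1573 to 7636 in monocyte-derived cells (2 to 5 receptors). It gave 281 to 573 (1 to 3 receptors) for obese CD11c-negative against MHCII-low, 101 to 512 (0 to 3) for CD11c-positive against CD11c-negative, 6494 to 7789 and 5516 to 6877 for obese monocyte-derived cells against CD11c-positive and MHCII-low, and 141 to 211 and 8842 to 11231 for lean CD11c-negative and monocyte-derived cells against MHCII-low. The diet differences gave 420 to 2526 (0 to 2 receptors), 782 to 3200 (1 to 5) and 0 to 1. Without replicate 2 of every obese group, in the same order, the counts were 2996, 4429, 1998, 277 (1 receptor), 55 (0), 5460, 4977, 202 for the lean CD11c-negative comparison, 144 (0), 347 (1) and 0.

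Labels give each sample a replicate number in the title and in the description. The numbers are the same for all obese and lean MHCII-low samples. They differ for some lean CD11c-negative and lean monocyte-derived samples. Same-numbered obese samples deviated together in 17 of 18 pairs (r 0.0829 to 0.771 over 8205 genes), against 2 of 36 with other numbers. Lean ones did so in 4 of 9 pairs by title and 5 of 7 by description. The labels do not say what a number stands for, and 1 obese pair lay under 0.1. The main tests leave this shared deviation out. The fits with a replicate block take it in for comparisons within a diet and for diet differences, with numbers kept separate by diet. For the diet change within a population the block instead joined lean and obese samples of the same title number. The labels do not link those samples, so that block does not model the shared deviation within a diet. With the replicate block by title number, genes called were 1170 for obese CD11c-negative against MHCII-low, 1847 for CD11c-positive against CD11c-negative, 553 (2 receptors) for lean CD11c-negative against MHCII-low, and 1833 (2), 2429 (4) and 11 for the diet differences. With the replicate block by description number they were 1332, 2364, 1503 (2) and 2833 (4) where they moved. The replicate block also called Vdr between CD11c-negative and MHCII-low macrophages, in obese mice (1.12 with adjusted p = 0.0151 by title and 0.0329 by description) and, by title, in lean mice (adjusted p = 0.0187). Both blocks called Nr1h3 between CD11c-positive and CD11c-negative macrophages, Esr1 between monocyte-derived and CD11c-positive cells, and diet differences of Pparg (monocyte-derived minus MHCII-low), Nr3c1 and Ppard (monocyte-derived minus CD11c-negative). With the block that joined lean and obese samples by title number, the Nr1h2 diet call in MHCII-low macrophages was lost.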
